A study of Rattus norvegicus with 3 samples.

Results

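The genes examined were Nfe2l2, which encodes the transcription factor Nrf2, Keap1, which encodes its cytoplasmic inhibitor, and 8 genes known as Nrf2 targets: Hmox1, Nqo1, Gclc, Gclm, Slc7a11, Gsr, Txnrd1 and Srxn1. They were taken by gene symbol from a table of 18425 rat genes, in which all 10 were found, each with whole-number read counts in all 3 libraries. The retinas came from wild-type (WT) Sprague-Dawley rats injected into the vitreous at postnatal day 1 (P1) with 1 µl and collected at P4. The buffer library was from retinas given citrate buffer at pH 4.5, the saline library from retinas given saline, and the STZ library from retinas given 10 µg of streptozotocin (STZ), a nitrosourea sugar that alkylates DNA. STZ was dissolved in citrate buffer and then diluted, in a diluent not given in the sources used here. There was 1 library per treatment, and the number of animals or retinas behind each library was not given in the sources used here. Within the sequencing data no difference described here has a replicate check, and no p-value was computed. Unless a library is named, 3 values in a row follow the order buffer, saline, STZ.

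Nrf2 is held in the cytoplasm by Keap1, which passes it to a Cul3 ubiquitin ligase for breakdown. Oxidants and electrophiles modify cysteines of Keap1, Nrf2 then builds up, enters the nucleus, pairs with small Maf proteins and binds antioxidant response elements in its target genes. Because this control acts on the protein, Nfe2l2 mRNA is a poor gauge of Nrf2 activity and the mRNAs of several targets are commonly read together. Hmox1 is also controlled by the heme-sensing repressor Bach1 and by other stress-responsive factors. In the retina the pathway is known for protecting neurons, glia and pigment epithelium from oxidative damage.

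The antioxidant response element was searched for by its core letters, TGACNNNGC, on both strands of RefSeq promoter windows of the assembly GRCr8 that run from 250 bases before to 50 bases after a start site. Windows were found for 8 of the 10 genes, and Hmox1 and Gsr were not among them. Of the 8 genes, 3 held the letters in at least 1 window, where 13.1% of the 27457 genes in the table did. They are printed because they show the element in genes whose mRNA is described further on. The capitals mark the match, which lies on the opposite strand in Txnrd1 and Gclm and on the gene's own strand in Nfe2l2. The Txnrd1 match began 78 bases before the second of 2 start sites, the Gclm match 172 bases before its start site, and the Nfe2l2 match at base 39 after the start. A match is a description of the letters and not a measured binding site. Bases outside these windows were not searched, so a gene without a match may hold the element elsewhere.
Txnrd1, chr7:22755924-22756032, minus strand: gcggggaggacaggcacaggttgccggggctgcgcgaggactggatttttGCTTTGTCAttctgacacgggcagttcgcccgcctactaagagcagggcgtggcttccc
Gclm, chr2:213031913-213032021, plus strand: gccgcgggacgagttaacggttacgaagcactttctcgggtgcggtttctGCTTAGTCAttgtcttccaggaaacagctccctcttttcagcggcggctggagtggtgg
Nfe2l2, chr3:81028950-81028969, minus strand: ctagccatTGACGCCGCctc

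For Hmox1, which had the largest fold of the 10 genes in STZ against buffer, the sequences at hand were the primer pair listed among the study's RT-PCR primers under the protein's name, HO-1. The primers carry no capitals, and their positions in the transcript were not mapped here. By RT-PCR, run on several biological samples, the study reported that STZ strongly induced Hmox1. Whether these samples were apart from the sequenced retinas was not given in the sources used here.
Hmox1 forward primer: atgtcccaggatttgtc
Hmox1 reverse primer: ttctgcttgtttcgctct

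The 3 libraries were of nearly equal depth, between 21977843 and 22031249 estimated reads. All 12 markers of the retina were detected in every library, at a summed TPM of 3285, 3178 and 3259, with Crx, the photoreceptor factor, at 12972, 11780 and 13849 reads. The level sum covers genes that differed. By the fold rule given further on, 0 of the 12 were higher in STZ than in either control. Lhx2 was the 1 lower than each, at 2416, 2567 and 1446 reads. In STZ against buffer 6 of the 12 had a fold above 1, and the folds ran from 0.603 for Lhx2 to 1.2 for Tfap2a. Markers of other tissues differed between the libraries. The summed TPM of 18 microglia and macrophage markers was 163, 213 and 509, and that of 16 lens markers 41.4, 109 and 700. Of the 16 lens markers 11 were higher in STZ than in buffer by the fold rule and 0 lower. The crystallin gene Cryba1 had 22, 62 and 731 reads. Some lens markers did not pass, among them Mip at 73.2, 73.2 and 86.3 reads, Bfsp2 at 29, 35 and 49, and the crystallin gene Crygs at 2, 2 and 3. Whether the lens sum came from lens tissue was not tested. The saline library stood apart for 10 ciliary and iris epithelium markers, with 492, 839 and 491 TPM, and for 10 pigment epithelium and melanocyte markers, with 112, 145 and 110 TPM from 1051, 2156 and 1094 reads. The 8 endothelial markers summed to 240, 257 and 166 TPM. Most of this sum was Kdr, a VEGF receptor gene, with 13149, 14564 and 9972 reads. By the fold rule 4 of the 8 were lower in STZ than in buffer, with a list median log2 fold of -0.78, and the tight junction gene Cldn5 had 188, 154 and 37 reads. The 8 astrocyte markers summed to 451, 454 and 413 TPM, mostly from Slc1a3 and Vim, which other retinal cells also express. Of the 8, 3 were lower in STZ than in buffer, with a list median of -0.55, and 4 were lower than in saline, among them Pdgfra at 650, 581 and 269 reads and Pax2 at 57, 53 and 10. For injections examined by function and morphology, the study put STZ into right eyes and buffer into the left eyes of the same animals, but whether the sequenced retinas were such pairs was not given in the sources used here. Treatment and dissection cannot be told apart with 1 library each, and in whole retina fewer cells of a type cannot be told from less RNA per cell.

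The levels of the 10 genes, in TPM (reads scaled by transcript length and to a fixed library sum), spread over nearly 2 orders of magnitude. In the buffer library Txnrd1 was the most abundant at 53.4, followed by Keap1 at 30.8, Gclc at 30.6, Gsr at 28.2 and Nfe2l2 at 24.5. Hmox1 at 15.8 and Gclm at 14.6 came next, while Srxn1 at 3.16, Slc7a11 at 3.01 and Nqo1 at 0.8 were at the low end. Within this order the 95% counting intervals of Keap1 and Gclc overlapped, as did those of Gclc and Gsr, Gsr and Nfe2l2, Hmox1 and Gclm, and Srxn1 and Slc7a11. In the STZ library Hmox1 had moved from rank 6 of the 10 to rank 2, with an interval that overlapped that of Gclc below it. In the saline library Slc7a11 lay above Srxn1 without overlap. Txnrd1 was first and Nqo1 last in all 3 libraries, although the Nqo1 and Srxn1 intervals overlapped in saline.

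**Figure D1:**
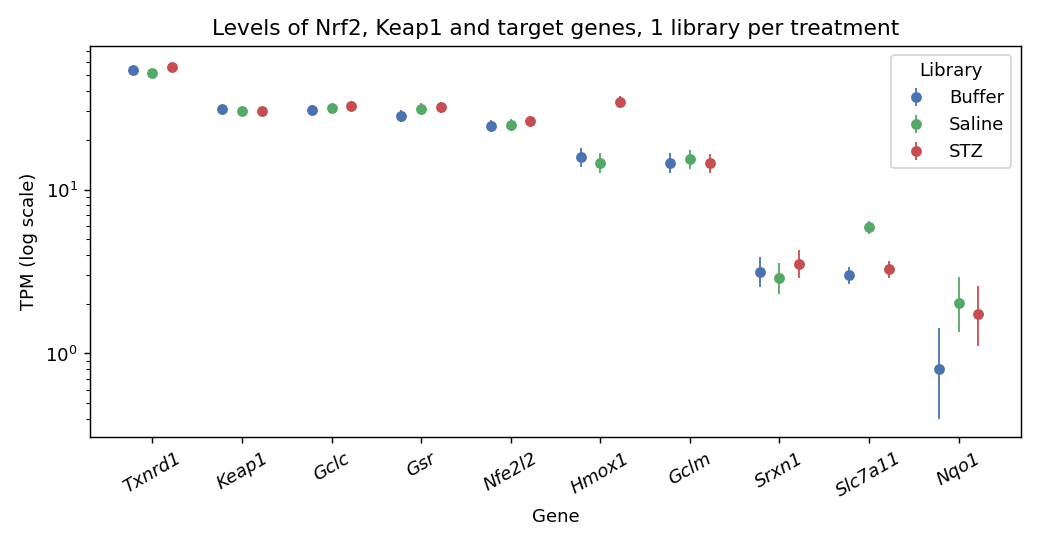
TPM on a log axis of the 10 genes, ordered by their level in the buffer library, with 1 point per library and bars for the exact 95% Poisson interval of the reads behind it. Hmox1 stands at 34.3 TPM in STZ against 15.8 in buffer and 14.6 in saline, and Slc7a11 at 5.89 in saline against 3.01 in buffer and 3.27 in STZ.

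Each gene was compared between libraries by the fold of the study's methods, (FPKM + 1)/(FPKM + 1), with a gene called higher above 1.54 and lower below 0.65. FPKM is the deposited read level scaled by transcript length and library total. Beside it stands the count ratio, which divides a gene's share of all reads in one library by its share in the other and carries a 95% interval (exact, Clopper-Pearson). With 1 library per treatment, an interval covers counting error only and compares libraries, not treatments. These reads carry no molecular identifiers, so duplicate reads could not be told apart and the intervals may be too narrow.

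The sensor and the transcription factor were level across the libraries. Nfe2l2 (gene 83619), which encodes Nrf2 itself, had 607, 619 and 651 reads. These 3 values lie close together, with STZ the highest. The count ratio of Nfe2l2 in STZ was 1.07 against buffer (interval 0.957 to 1.2) and 1.05 against saline (0.938 to 1.17). Keap1 (gene 117519), whose product binds Nrf2 and targets it for breakdown, had 1049, 1024 and 1026 reads. Its count ratio in STZ was 0.976 against buffer (0.895 to 1.07) and 1.0 against saline (0.916 to 1.09). On the TPM scale there were 1.26, 1.21 and 1.15 Keap1 transcripts per Nfe2l2 transcript.

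Hmox1 was the one gene of the 10 called higher in STZ than in both controls, where 2.25% of all genes were called higher against buffer and 2.04% against saline. Hmox1 (gene 24451) encodes heme oxygenase-1, the inducible enzyme that opens heme to biliverdin, carbon monoxide and iron. It had 233, 216 and 509 reads, and an FPKM of 8.05, 7.48 and 17.6. The STZ library was the high one, and the 2 controls lay within counting error of each other, with a count ratio of 0.928 for saline against buffer (0.767 to 1.12). The fold of Hmox1 was 2.05 against buffer and 2.19 against saline, and the count ratios were 2.18 (1.86 to 2.56) and 2.35 (2.0 to 2.77). Of the 18425 genes, 150 had a fold at least as large in STZ against buffer and 93 in STZ against saline.

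Its constitutive paralog Hmox2 catalyses the same reaction and was level, at 54.9, 57.4 and 56.1 TPM. Hmox1 therefore stood at 0.287, 0.254 and 0.611 transcripts per Hmox2 transcript. Bach1, which encodes the heme-sensing repressor of Hmox1, had 44.4, 42.6 and 40.6 TPM. Its fold in STZ was 0.92 against buffer and 0.954 against saline. The Bach1 count ratios were 0.901 (0.838 to 0.969) and 0.921 (0.856 to 0.991). Intervals lay below 1 for 15.8% and 19.8% of all genes with reads. Bach1 counts are fractional, an error that these intervals leave out, and its part in the Hmox1 difference was not tested. Macrophages are a known site of Hmox1 expression, and the microglia and macrophage markers were higher in the same library. By the fold rule 13 of these 18 genes were higher in STZ than in buffer and 13 than in saline, with 0 lower in either. Csf1r, the receptor that microglia need to survive, had 449, 540 and 905 reads. By staining for the microglial protein IBA1, the study counted more such cells in STZ-treated retinas from P4 on. For every 100 reads of the list there were 11.4, 8.32 and 9.14 Hmox1 reads. The part of these cells in the Hmox1 difference was not tested. Cd163, the macrophage receptor for hemoglobin, was near the limit of detection at 0, 14 and 1 reads. The 9 blood markers summed to 255, 354 and 194 TPM, mostly from the globin genes Hba1 and Hbb. The globin gene Hbb-b1 was higher in STZ than in buffer, at a fold of 1.84, but lower than in saline, at 0.62. Its fold in saline against buffer was 2.96. By the fold rule 1 of the 9 was higher and 1 lower in STZ than in buffer, and 4 were lower than in saline.

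The genes of glutathione synthesis and recycling showed no such difference in STZ. Gclc (gene 25283) encodes the catalytic subunit of glutamate-cysteine ligase, the rate-limiting enzyme of glutathione synthesis, and had 970, 993 and 1033 reads. Gclm (gene 29739), which encodes the modifier subunit of the same enzyme, had 206, 217 and 205 reads. In STZ against buffer the count ratio was 1.06 for Gclc (0.973 to 1.16) and 0.993 for Gclm (0.815 to 1.21). Gclc transcripts outnumbered those of Gclm by 2.1, 2.04 and 2.25 to 1 on the TPM scale. Gsr (gene 116686) encodes glutathione reductase, which returns oxidised glutathione to its reduced form. It had 512, 568 and 579 reads, so saline and STZ lay together above buffer. Its count ratio was 1.13 in STZ against buffer (1.0 to 1.27), with a lower bound just above 1, and 1.11 in saline against buffer (0.983 to 1.25). The Gsr folds of 1.12 and 1.1 are far from the threshold.

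The thioredoxin arm was likewise close to level. Txnrd1 (gene 58819), which encodes the cytosolic thioredoxin reductase, had 1922, 1856 and 2025 reads. Its count ratio in STZ was 1.05 against buffer (0.988 to 1.12) and 1.09 against saline (1.02 to 1.16), where the interval lies above 1. Srxn1 (gene 296271) encodes sulfiredoxin, which repairs overoxidised peroxiredoxins, and had 94, 86 and 105 reads. Its STZ value was the highest of the 3, but the intervals of 0.836 to 1.49 against buffer and 0.907 to 1.64 against saline both include 1. A difference in Srxn1 within these intervals was not detectable at this depth. For the genes printed with the element before their start site, Txnrd1 and Gclm, the upper bounds in STZ against buffer were 1.12 and 1.21. Whether the element acts in these retinas was not tested.

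Nqo1 (gene 24314), which encodes the quinone reductase often used as a marker of Nrf2 activity, was too weakly expressed for a firm statement. It had 11, 28 and 24 reads, or 0.41, 1.04 and 0.89 FPKM. The buffer library was the low one, and saline and STZ did not differ beyond counting error, with a count ratio of 0.855 in STZ against saline (0.474 to 1.53). Against buffer the ratio was 2.18 in STZ (1.03 to 4.93) and 2.55 in saline (1.23 to 5.67). The folds of 1.34 and 1.45 did not pass 1.54, because the pseudocount of 1 exceeds the level in buffer. With a pseudocount of 0.1 the Nqo1 folds were 1.94 in STZ and 2.24 in saline, and both passed.

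Slc7a11 differed between the 2 controls. Slc7a11 (gene 310392) encodes xCT, the cystine importer of system xc-, which supplies cysteine for glutathione and is also known for its role in pheomelanin synthesis in pigment cells. It had 278, 496 and 281 reads. The saline library was the high one, while STZ and buffer did not differ beyond counting error, at a ratio of 1.01 (0.852 to 1.2). The fold in saline against buffer was 1.58, past the threshold, with a count ratio of 1.79 (1.54 to 2.08), in a comparison where 1.00% of all genes were called higher. In STZ against saline the fold was 0.664, just short of 0.65, with a count ratio of 0.565 (0.486 to 0.656). This fold passed as lower with the pseudocount of 0.1, where it was 0.567, and with TPM or CPM in place of FPKM.

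Its partner subunit Slc3a2, the heavy chain that system xc- shares with other transporters, had 2917, 3245 and 3131 reads, and its fold in saline against buffer was 1.12. The same saline library held the higher pigment and ciliary epithelium markers. Pmel, a melanosome protein gene, had 252, 940 and 240 reads and Aldh1a1, a retinal dehydrogenase gene listed here among the ciliary markers, had 1904, 6838 and 1904. Which cells gave the Aldh1a1 reads was not tested. The transport protein gene Ttr, of the pigment epithelium, had 477, 398 and 456 reads, and Mab21l1, an eye development gene, had 7333, 7505 and 7912. Of the 10 pigment epithelium and melanocyte markers 5 were higher in saline than in buffer by the fold rule, and of the 10 ciliary and iris epithelium markers also 5, with 0 lower in either list. The part of this tissue in the Slc7a11 difference was not tested. The deposited FPKM of Slc7a11 and its reads imply transcript lengths of 8.21, 7.47 and 7.64 kb, a spread of 9.84%. For each of the other 9 genes this spread was at most 0.551%. The FPKM ratio of saline to buffer, 1.96, is therefore larger than the count ratio.

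**Figure D2:**
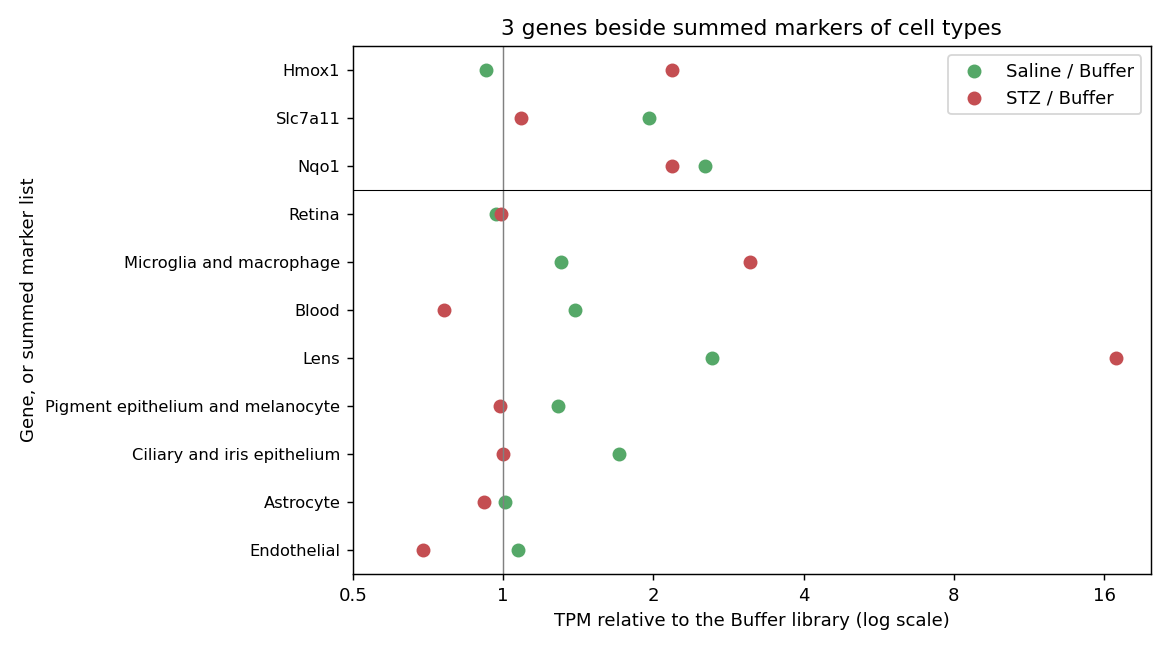
TPM relative to the buffer library, on a log axis, for 3 genes and for the summed markers of 8 tissues or cell types, with 1 point for saline and 1 for STZ. In STZ, Hmox1 lies at 2.18 and the microglia and macrophage markers at 3.12, while in saline Slc7a11 lies at 1.96 and the ciliary and iris epithelium markers at 1.7.

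Set side by side, 1 of the 10 genes was called higher and 0 lower in STZ against buffer, where 2.25% of all genes were called higher and 1.04% lower. In STZ against saline it was again 1 higher, Hmox1, and 0 lower, beside 2.04% and 1.75% of all genes. In saline against buffer 1 was higher, Slc7a11, and 0 lower, beside 1.00% and 0.429%. The first 2 comparisons share the STZ library and are not independent. The folds of the 9 genes other than Hmox1 ran from 0.977 to 1.34 in STZ against buffer, and 8 of the 10 genes had a fold above 1, as did 9939 of all 18425. The median log2 fold of the 10 was 0.08 in STZ against buffer and 0.04 against saline, beside 0.03 and 0.01 over the 14885 genes that averaged at least 10 counts. Leaving out the thinly covered Nqo1, the upper bounds of the remaining 8 count ratios in STZ against buffer reached 1.49 at most, for Srxn1, below the lower bound of 1.86 for Hmox1. The counting interval excluded 1 on the higher side for 3 of the 10 genes, Hmox1, Nqo1 and Gsr, in STZ against buffer, beside 22.2% of all genes with reads, and on the lower side for 0, beside 15.8%. In STZ against saline it did so for 2 on the higher side, Hmox1 and Txnrd1, and for 1 on the lower, Slc7a11, beside 22.5% and 19.8% of all genes. In saline against buffer it did so for 2 on the higher side, Slc7a11 and Nqo1, and 0 on the lower, beside 13.6% and 10.0%. Read depth, on which such exclusion depends, was not matched between the 10 genes and all genes.

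**Figure D3:**
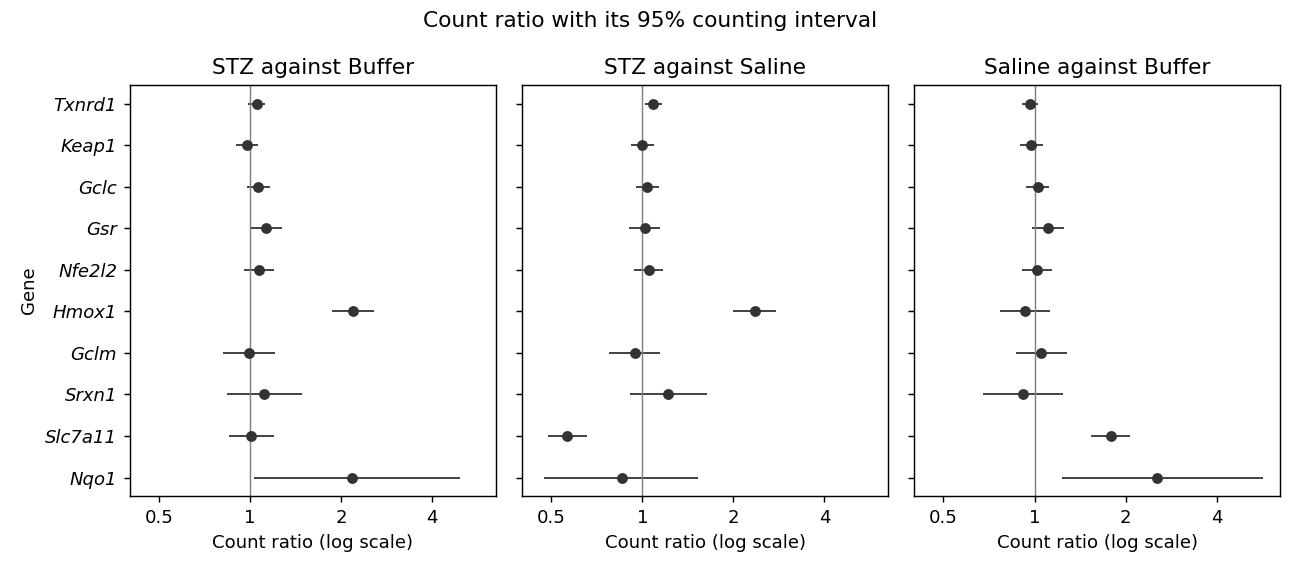
Count ratio on a log axis, with its exact 95% counting interval, for the 10 genes in the 3 comparisons, ordered by level in buffer. Hmox1 lies at 2.18 and 2.35 in both comparisons of STZ and at 0.928 between the controls, and Slc7a11 lies away from 1 in both comparisons that involve saline, at 0.565 and 1.79.

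The wider pathway was covered by 6 lists of 87 genes, of which 83 were in the table. In STZ against buffer 3 of the 83, or 3.61%, were higher by the fold rule, beside 2.25% of all genes, and 0 were lower, beside 1.04%. In STZ against saline 1 was higher and 1 lower, beside 2.04% and 1.75%. The 3 were Ephx1, Sesn2 and Glrx. Ephx1 encodes microsomal epoxide hydrolase and had 42, 76 and 138 reads, so saline lay between the other 2. The Ephx1 fold was 2.28 against buffer and 1.56 against saline, past the threshold in both, with a count ratio of 3.28 against buffer (2.31 to 4.75). Sesn2 encodes sestrin 2, a stress protein that is also a known p53 target, and had 451, 512 and 785 reads. Its fold was 1.66 against buffer and 1.48 against saline, the latter short of 1.54. Glrx encodes glutaredoxin, which removes glutathione from protein thiols, and had 149, 172 and 247 reads. Its fold was 1.57 against buffer, just past the threshold, and 1.38 against saline. Ephx1 was thus the single gene of the 83 higher in STZ than in both controls, and Gstm2, a glutathione transferase gene with 8, 69 and 6 reads, was the single one lower than in saline.

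The 20 partners and regulators of Nrf2 were 0 higher and 0 lower in all 3 comparisons, with a median log2 fold of 0.02 in STZ against buffer. The most abundant were Rbx1, a subunit of the Cul3 ligase, at 261, 271 and 263 TPM, and Sqstm1, whose product p62 binds Keap1, at 238, 248 and 258. Among 8 thioredoxin and peroxiredoxin partners Sesn2 was the 1 higher gene, and the median was 0.12. The most abundant were Prdx1, a peroxiredoxin, at 2246, 2394 and 2660 reads, and Txn1, which encodes thioredoxin, at 221, 233 and 235 reads. The deposited FPKM of Txn1 implies a length of only 0.0824 kb in buffer, so its level per length is uncertain.

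Of the 6 NADPH supply genes 0 were higher or lower, and their median log2 fold of 0.16 against buffer and 0.22 against saline lay above the medians of all genes. Tkt and Taldo1, the transketolase and transaldolase of the pentose phosphate pathway, were the most abundant at 236 and 224 TPM on average. Taldo1 had 2349, 2242 and 2720 reads, with count ratios in STZ of 1.16 against buffer (1.09 to 1.22) and 1.21 against saline (1.14 to 1.28), whereas Tkt had 5020, 5171 and 4934 reads. In the 13 genes of heme breakdown and iron storage 0 were higher or lower. Their median was 0.09 in STZ against buffer, 0.08 against saline, and 0.06 in saline against buffer. The ferritin genes Ftl1 and Fth1 were the most abundant of the list, and their count ratios in STZ against buffer were 1.1 (1.07 to 1.13) and 1.16 (1.12 to 1.21), below the 2.18 of Hmox1. Their counts are fractional in at least 1 library. How such counts arose was not given in the sources used here, and the intervals leave that error out.

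The glutathione list had 26 genes in the table, 1 higher and 0 lower in STZ against buffer, and a median of 0.11 over the 19 with at least 10 counts on average. Its most abundant genes were Gpx4, the lipid peroxide reductase, with 4317, 4148 and 4564 reads, and Slc3a2. Of the 10 measured genes of quinone, aldehyde and carbonyl detoxification, 1 was higher and 0 were lower in STZ against buffer. Over 8 genes the median was 0.20 in STZ against buffer and 0.08 against saline. It was 0.195 in saline against buffer, so the 2 controls differed about as much. Akr1a1, an aldehyde reductase gene and the most abundant of the list, had 6086, 5907 and 6187 reads. Ptgr1, a reductase of unsaturated lipid ketones and the next in abundance, had 146, 138 and 195 reads and folds of 1.29 and 1.36. By counting intervals alone, 27 of the 83 genes were above 1 and 5 below in STZ against buffer, beside 22.2% and 15.8% of all genes with reads. Whether an interval excludes 1 depends on read depth, which was not matched between the list genes and all genes.

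**Figure D4:**
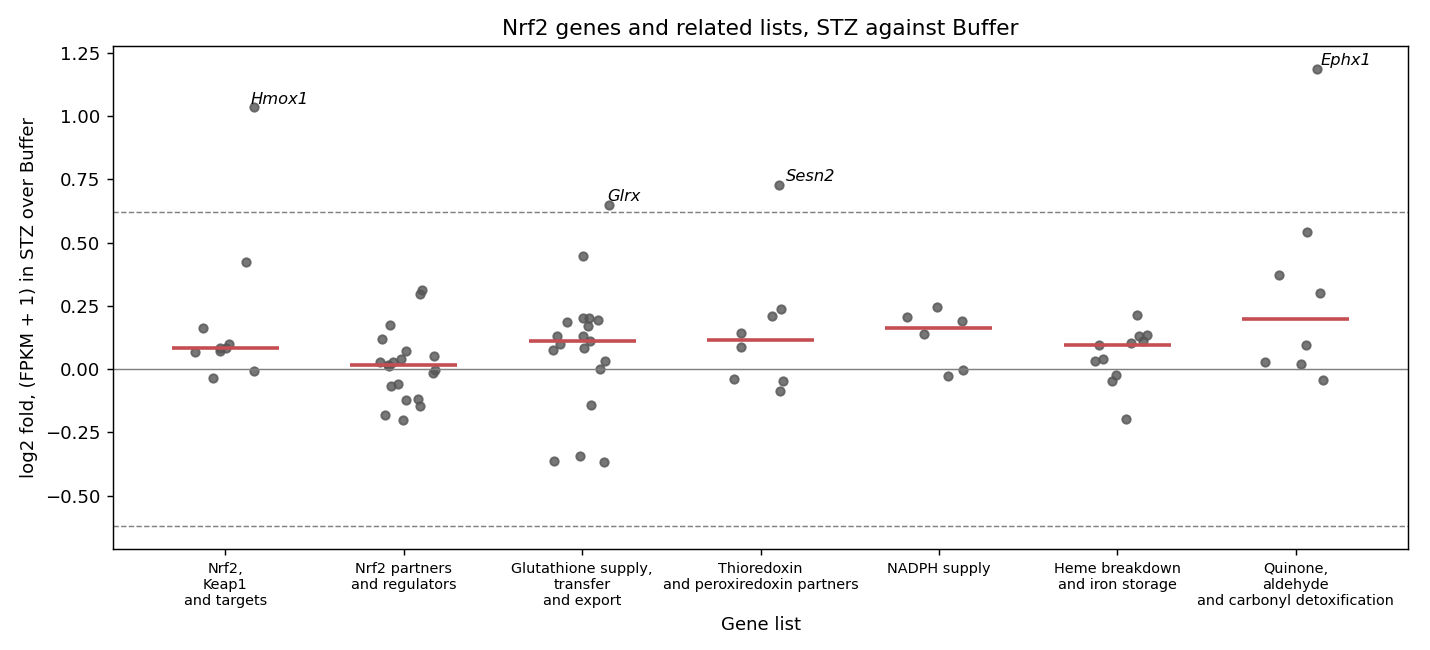
Log2 of the fold (FPKM + 1)/(FPKM + 1) in STZ against buffer for the genes of each list with a mean of at least 10 counts, where each point is a gene, the red line is the list's median and the dashed lines are the thresholds. The named points are the 4 genes above the upper threshold, Hmox1, Glrx, Sesn2 and Ephx1, and the list medians lie between 0.02 and 0.20.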

How the data were processed

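RNA was sequenced from 3 rat retina libraries. According to the study's methods, reads were quality-checked with FastQC, trimmed, and mapped with TopHat2 to rn6, the build named in the submitters' processing notes. Reads with several genomic locations were discarded. The tool behind the fractional counts was not given in the sources used here. For each gene the authors deposited FPKM, TPM and an estimated count, which is not always whole. The deposited TPM were used for levels and the deposited FPKM for folds. The estimated counts were rounded to whole numbers for intervals. The series table and the library tables were the same, with a largest difference of 0.

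With 1 library per group no count model was fitted. The fold rule and its thresholds follow the study's methods. Count ratios have exact Clopper-Pearson intervals. The genes and all lists were chosen with earlier results of these data known. The genes named were the 10 members, list genes past a threshold in STZ against buffer, the 2 most abundant of each pathway list by mean TPM, the 5 genes nearest Hmox1, and, of the marker lists, the 2 genes with most counts where a result of the 10 genes touched the list, plus Crx and Kdr. Some genes of the lists are not reported here by name. Genes named outside this rule, with their values seen, were Hmox2, Bach1, Cd163, Gstm2, Gstm3, Btrc and Maff. So were the marker genes Lhx2, Tfap2a, Cryba1, Crygs, Mip, Bfsp2, Cldn5, Slc1a3, Vim, Pdgfra, Pax2 and Hbb-b1. Of 18425 gene identifiers, 17120 matched RefSeq's table for GRCr8, including all 10 members, and no gene coordinates were taken from it. Results were recomputed with thresholds of 2 and 0.5, a pseudocount of 0.1, TMM factors of edgeR 4.0.16, size factors of DESeq2 1.42.0, TPM or CPM in place of FPKM, counting intervals, count minimums of 10 and 50, and other controls. Calculations were tested on simulated data. Python 3.11.15, scipy 1.17.1 and matplotlib 3.10.9 were used.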

Additional observations from a re-analysis of the deposited data

How the results depend on the processing

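Of the 10 genes, 1 was called higher and 0 lower in each comparison. With a pseudocount of 0.1 these became 2 higher in STZ against buffer, 1 lower in STZ against saline and 2 higher in saline against buffer, through Nqo1 and Slc7a11. With TPM there was 1 lower in STZ against saline and 2 higher in saline against buffer, and with CPM 1 lower in STZ against saline. Thresholds of 2 and 0.5 left 0 higher in saline against buffer. Counting intervals gave 3 higher in STZ against buffer, 2 higher and 1 lower in STZ against saline, and 2 higher in saline against buffer. Hmox1 kept its direction and both its calls in STZ against buffer and against saline under every fold alternative, with folds of up to 2.33.

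Of the 83 list genes, 3 were higher and 0 lower in STZ against buffer, 1 and 1 in STZ against saline, and 1 and 0 in saline against buffer. With a pseudocount of 0.1 these were 8 and 4, 3 and 3, and 8 and 1. Counting intervals gave 27 and 5, 24 and 17, and 16 and 6. Thresholds of 2 and 0.5 left 1 higher in STZ against buffer and 0 in STZ against saline. TMM factors, DESeq2 factors and the mean of both controls each left 2 higher in STZ against buffer. TPM and CPM each gave 2 lower in STZ against saline and 2 higher in saline against buffer, and the mean of both controls gave 1 lower in STZ.

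Over all genes, 415 were higher and 191 lower in STZ against buffer, 375 and 322 in STZ against saline, and 185 and 79 in saline against buffer. The pseudocount of 0.1 gave 1432 and 831, 1265 and 1270, and 1113 and 541. Thresholds of 2 and 0.5 gave 166 and 52, 130 and 85, and 72 and 28. Counting intervals gave 4007 and 2851, 4075 and 3585, and 2451 and 1806. TPM gave 304 lower in STZ against buffer, 575 and 513 in STZ against saline, and 350 and 130 in saline against buffer. With the pseudocount of 0.1, STZ against saline thus had more lower than higher genes, where the pseudocount of 1 gave more higher. No value of the 10 genes past a fold threshold changed direction, but values short of it did. Slc7a11 in STZ against buffer went from a fold of 1.05 to 0.814 with the mean of both controls, and from a count ratio of 1.01 to 0.981 with TMM, 0.983 with DESeq2 factors and 0.565 with saline as the control. The count ratio of Nqo1 went from 2.18 to 0.855 with saline as the control. The Keap1 fold in STZ against saline went from 0.999 to 1.001 with TPM. The median of the Nrf2 partners in STZ against buffer went from 0.02 to -0.02 with TMM and with DESeq2 factors. TMM and DESeq2 factors lay between 0.985 and 1.01 and left every count above within 1.5 times its value.

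No paired analysis was possible because each treatment had 1 library, and for the same reason leaving out a replicate was not run. Depth limits Nqo1 and Srxn1 most, and the other genes' intervals leave out variation between animals.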

Other observations

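The genes whose pattern over the 3 libraries was nearest that of Hmox1 were Gngt1, Nckap1l, Gal, Cpt1a and Fos, by the distance of 2 log2 count ratios, STZ to buffer and saline to buffer, among 10158 other genes with whole counts and a mean of at least 100. Gngt1, a rod transducin subunit gene, gave 932 reads with buffer, 865 with saline and 2076 with STZ. In the same order, Nckap1l, an actin regulator gene of blood-derived cells, had 125, 118 and 270 reads. Cpt1a, which encodes the carnitine transferase of mitochondrial fatty acid import, had 1064, 1010 and 2472 reads. Gal, a neuropeptide gene, had 345, 312 and 718, and the immediate early gene Fos had 84, 78 and 171. With 3 libraries such a likeness describes 2 ratios per gene and nothing more.

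The glutathione transferase genes Gstm2 and Gstm3, of the Mu class, differed most of that class between saline and buffer, and both were chosen after their values were seen. Gstm2 had 8, 69 and 6 reads, which gave a fold of 4.19 in saline against buffer and 0.216 in STZ against saline. Gstm3 had 263, 406 and 270 reads, a fold of 1.52 in saline against buffer, short of 1.54, with a count ratio of 1.54 (95% counting interval 1.32 to 1.81). The Mu class genes are similar in sequence, so the division of reads among them is uncertain.

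Among the regulators of Nrf2, Btrc, also chosen after its values were seen, had the largest fold in STZ with the pseudocount of 1. By count ratio against buffer the small Maf gene Maff was higher, at 1.42 (1.01 to 2.02) from 59 reads in buffer and 84 in STZ. Btrc encodes the ligase adaptor beta-TrCP, which can direct Nrf2 to breakdown independently of Keap1, and had 2606, 2407 and 3236 reads. Its folds of 1.24 against buffer and 1.32 against saline did not pass the threshold, with count ratios of 1.24 (1.18 to 1.31) and 1.34 (1.27 to 1.41).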
